A study of Mus musculus with 8 samples.

Results

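Long-term (LT) stem cells of the bone marrow were compared with short-term (ST) stem cells, with disease held as a covariate. The comparison used 6 of the 8 RNA-sequencing libraries of the series, chosen by their labels as the 4 LT and the 2 ST libraries. The study took marrow from mice with chronic myelogenous leukaemia (CML) and, per its text, from healthy littermates and measured gene expression in sorted populations. LT cells were sorted as CD150+CD48-CD135-KLS+ and ST cells as CD150-CD48-CD135-KLS+, where KLS+ stands for cells with c-Kit and Sca-1 and without lineage markers on their surface. CML mice carried Tal1-tTA and TRE-BCR-ABL1, so that the BCR-ABL1 oncogene was driven from the Tal1 enhancer once doxycycline was withdrawn, and the healthy littermates of the methods carried Tal1-tTA alone. The sources used here do not settle which healthy mice gave the normal libraries. Normal LT cells (LT-HSCs) gave 2 libraries, LT-CML stem cells 2, normal ST cells (ST-HSCs) 1 and ST-CML stem cells 1. The labels give 2 months as the age of the first LT-HSC library and of the ST-HSC library, 6 months for the second LT-HSC library and no age for the CML libraries. They name C57BL/6 as the strain, whereas the study's methods give FVB/N as the background of the transgenic mice and use C57BL/6 mice in other experiments. Neither states how many mice a library holds, so p-values measure the spread between these libraries, which may be partly technical.

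Haematopoietic stem cells sustain all blood lineages, and the LT compartment is the one that does so durably after transplantation, whereas ST cells repopulate for a limited time. The surface receptor CD150, encoded by Slamf1, is kept on LT cells and also marks stem cells with a megakaryocyte and platelet bias. CD135, the Flt3 receptor, and CD48 appear as cells move towards multipotent and lymphoid-primed progenitors.

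Expression was read as RPKM, reads scaled to transcript length and to the mapped reads of the library, and compared as log2(RPKM + 1). A fold change on that scale understates the change of genes with low RPKM. The LT and ST libraries held an estimated 18.2 to 23.9 M reads, at which 3 reads on a transcript of 1 kb correspond to 0.126 to 0.165 RPKM. On this scale the replicates correlated across genes at 0.9805 in LT-HSCs and 0.9812 in LT-CML stem cells, whereas LT and ST libraries of the same disease state correlated at 0.957 to 0.975 and the 2 ST libraries with each other at 0.967. Transcripts of neutrophil granules, 10 genes such as S100a8, S100a9 and Ngp, summed to between 242 and 4127 RPKM in the LT libraries, highest in the 6-month LT-HSC library, and to 16.4 RPKM in ST-HSCs and 421 RPKM in ST-CML cells. By limma 0 of the 10 were called (7 higher at an unadjusted p under 0.05), their median log2 difference between LT and ST was 2.89, and their part in the results was not tested. Y-linked transcripts were present in the 6-month LT-HSC library and the second LT-CML library and near 0 in the other 4. Xist, which female cells express, was at 0.154 RPKM in the 6-month LT-HSC library and 23.6 to 30.8 RPKM in the other 4. The second LT-CML library held both kinds, with Xist at 13.5 RPKM and the Y-linked Eif2s3y at 24.4 RPKM. Whether it pools mice of both sexes was not tested.

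The gate chose the cells by the proteins of 5 genes, whose transcripts describe the sort. Slamf1 was at 14.3 and 10.7 RPKM in LT-HSCs, 35.5 and 25.4 RPKM in LT-CML stem cells, 1.11 RPKM in ST-HSCs and 2.87 RPKM in ST-CML stem cells. Every LT library lay above both ST libraries, with a log2 fold change of 2.83 (standard error 0.20, limma adjusted p = 0.000841), on the side by which the gate chose the cells. Flt3 was at 3.95 and 2.52 RPKM in LT-HSCs and 11.9 and 19.2 RPKM in LT-CML stem cells, against 61.6 RPKM in ST-HSCs and 71.6 RPKM in ST-CML stem cells. All LT libraries were below both ST libraries (log2 fold change -3.04, standard error 0.37, limma adjusted p = 0.00552), although both gates excluded cells with the CD135 protein on their surface. Cd48, likewise gated out of both populations, was at 10.4, 5.17, 16.8 and 29.5 RPKM in LT cells and 41.8 and 45.2 RPKM in ST cells. That is a log2 fold change of -1.67 (standard error 0.37, limma adjusted p = 0.0439), and the call was lost without ST-HSC or without the first LT-CML library. Without ST-HSC 2 of the 4 called markers passed.

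Ly6a, which encodes Sca-1, was between 72.4 and 96.1 RPKM in LT cells and at 152 and 136 RPKM in ST cells (log2 fold change -0.81, limma adjusted p = 0.0150). Its groups did not overlap, but its call was lost without the first LT-HSC library and without either ST library. Kit, the c-Kit receptor, overlapped between LT and ST (118.7 to 163.5 against 153.3 and 213.3 RPKM) and did not pass the test. For a single gene, an exact two-sided permutation test within disease groups has only 9 arrangements and cannot go below 0.111. Slamf1, Cd48, Flt3 and Ly6a each reached that value, and Kit gave 0.222 in the same exact test. The names LT and ST thus fit the transcript of CD150, whereas the mean RPKM of Flt3 and Cd48 was 7.08-fold and 2.81-fold higher in ST cells, although both proteins were gated out.

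**Figure D1:**
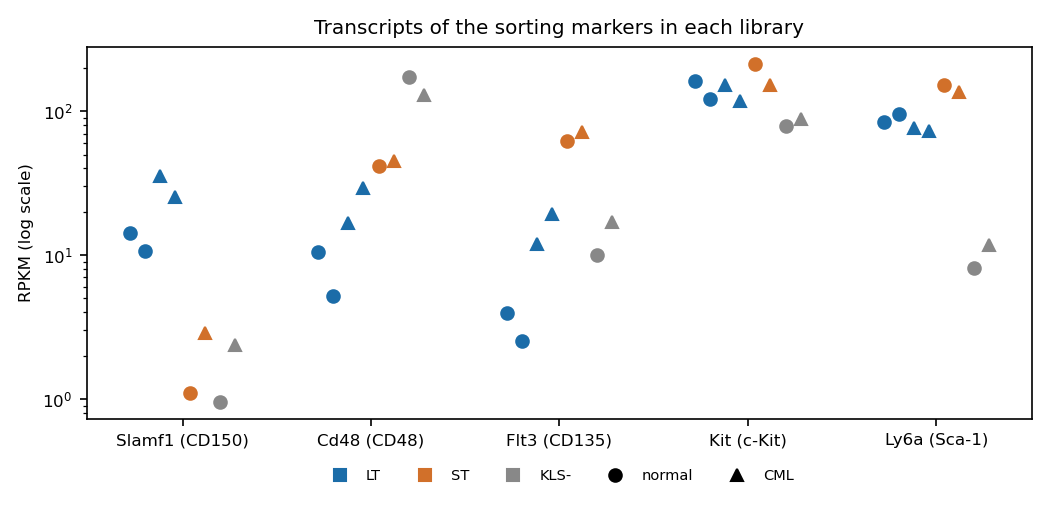
RPKM of 5 sorting markers in each of the 8 libraries on a log axis, with colour for the population (LT, ST, KLS-) and shape for normal (circles) or CML (triangles). Slamf1 is higher in all 4 LT libraries than in both ST libraries, Cd48, Flt3 and Ly6a are lower, and Kit overlaps.

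Across the genome, LT cells carried more transcript of platelet and megakaryocyte genes and of genes of the mitotic cycle, and less of lymphoid genes and several cytokine receptors. Of 12286 genes tested, 530 (4.31%) passed an adjusted p of 0.05, of which 296 (2.41%) were higher and 234 (1.90%) lower in LT cells. The groups did not overlap for 507 of the 530, a separation that the call itself favours. Over all genes tested, 13.0% were higher and 11.4% lower in every LT library than in both ST libraries. The median log2 difference was 1.04 among the genes called higher and -0.97 among those called lower, against 0.01 over all genes tested. A log2 difference of at least 1 was reached by 167 of the higher and 107 of the lower genes. Each side of the comparison rests on few libraries. Without ST-HSC 103 genes were called, without ST-CML 116, without the first or the second LT-CML library 277 and 278, and without the 6-month LT-HSC library 768. Without ST-CML the balance also turned, to 45 higher and 71 lower. Of the 72 genes named here by rule and called, 20 kept the call under all 17 alternatives. They include Slamf1, Sdpr, Pf4, Tuba8, Clu, Gm1964, Nupr1, Gata1, Vwf, Itga2b, Ctnnal1, Birc5, Nusap1 and Mki67 on the higher side and Dntt, Ccl3, Expi, Niacr1 and Satb1 on the lower side.

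**Figure D2:**
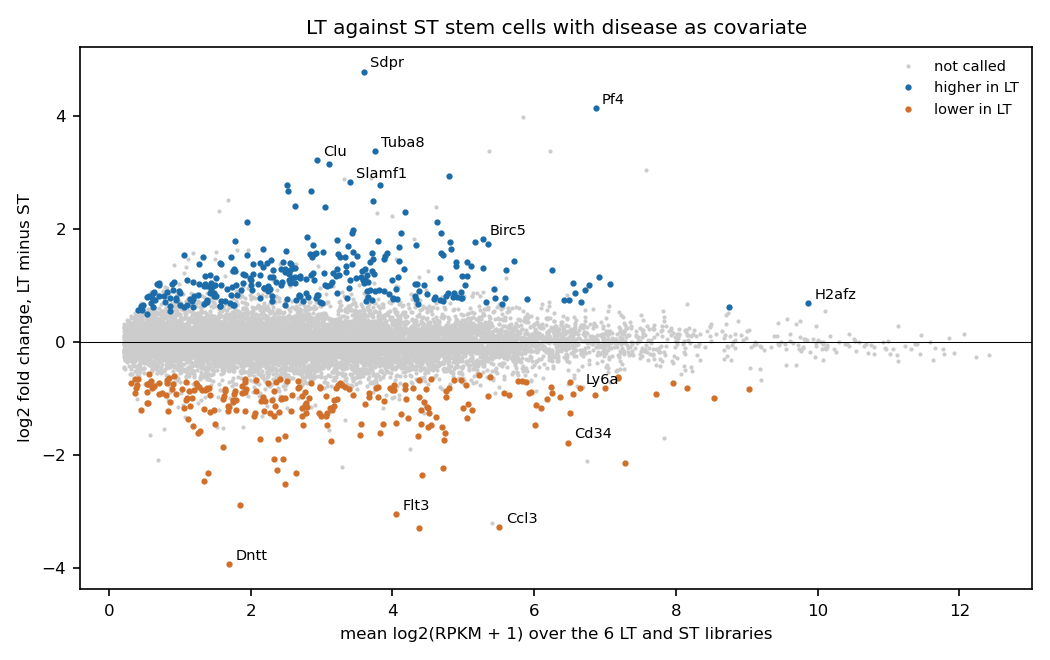
Log2 fold change of LT minus ST (vertical axis) against mean log2(RPKM + 1) over the 6 libraries (horizontal axis) for 12286 genes, with the 296 genes called higher in LT in blue, the 234 called lower in orange and the rest in grey. Sdpr and Pf4 stand at the upper edge and Dntt at the lower edge, and the called genes cover the whole range of expression.

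Platelet and megakaryocyte genes held the largest differences. Of 26 genes of this list that were tested, 14 were higher in LT cells and 0 lower (20 and 1 at an unadjusted p under 0.05 in limma), against 2.41% and 1.90% of all genes, and the list's median log2 difference was 0.87 against 0.01 over all genes. Of the 26, 17 were higher in every LT library than in both ST libraries, an order that 13.0% of all genes showed. Without ST-CML the list kept 6 calls and without ST-HSC 8. The summed RPKM of 7 markers of mature megakaryocytes and platelets, of which 6 were tested and 4 called, was 244 to 422 in LT cells and 28.7 and 40.1 in ST cells. Most of the LT sums was Pf4 alone, at 202 to 359 RPKM in LT cells against 16.1 and 16.4 RPKM in ST cells. The 4 called markers are also members of the platelet list, so they are no second set. The part of mature cells was not tested. These are bulk samples, so a larger share of platelet-biased cells and more transcript per cell cannot be told apart.

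Sdpr, which encodes the caveolar coat protein also called cavin 2, is encoded on chromosome 1 (plus strand, 51345970 to 51359803, NCBI Build 37). It was at 29.0 and 49.1 RPKM in LT-HSCs, 36.0 and 31.3 RPKM in LT-CML stem cells, and at 0.314 and 0.351 RPKM in ST-HSCs and ST-CML stem cells. The LT libraries lay far above both ST libraries in normal and CML mice alike, and the fold of the means was 109 (log2 fold change 4.78, standard error 0.22, limma adjusted p = 0.000120). Pf4 encodes platelet factor 4, a chemokine of platelet granules, and is encoded on chromosome 5 (plus strand, 91201461 to 91202407). It was among the most abundant of these transcripts, at 326, 356, 359 and 202 RPKM in LT cells against 16.1 and 16.4 RPKM in ST cells. That is a 19.1-fold ratio of means (log2 fold change 4.14, standard error 0.23, limma adjusted p = 0.000262).

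Clu, the chaperone clusterin, was at 9.23, 15.7, 22.8 and 15.5 RPKM in LT cells and 0.647 and 0.801 RPKM in ST cells (log2 fold change 3.22, limma adjusted p = 0.00129). Vwf, von Willebrand factor, which tethers platelets to the vessel wall, was at 8.75, 8.12, 16.2 and 8.05 RPKM in LT cells and 0.326 and 0.913 RPKM in ST cells (2.77, limma adjusted p = 0.00229). Treml1, a receptor of platelet granules, ran from 5.04 to 16.6 RPKM in LT cells and stood at 0.305 and 2.20 RPKM in ST cells (2.40, limma adjusted p = 0.00237). F2rl2, a thrombin receptor, was at 10.2, 7.08, 24.9 and 22.9 RPKM in LT cells and 2.70 and 5.10 RPKM in ST cells (1.70, limma adjusted p = 0.00552). LT and ST did not overlap for any of these 4 genes, and the F2rl2 call was lost without ST-CML. Itga2b, the platelet integrin CD41, and Itgb3, its beta partner, moved the same way. Itga2b was at 26.7, 15.1, 51.0 and 38.4 RPKM in LT cells against 4.72 and 5.85 RPKM in ST cells (log2 fold change 2.30, limma adjusted p = 0.00532), and Itgb3 rose by 1.72 (limma adjusted p = 0.00328).

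The glycoproteins of the von Willebrand receptor were also called. Gp9 ran from 26.1 to 42.7 RPKM in LT cells against 9.71 and 20.2 RPKM in ST cells (log2 fold change 1.14, limma adjusted p = 0.0433, lost without either ST library, either LT-HSC library or the first LT-CML library). Gp1bb was at 0.814 to 1.33 RPKM in LT cells and was listed at 0 in both ST libraries (limma adjusted p = 0.00611, lost without ST-CML). Not all platelet genes differed. Ppbp, which encodes another granule chemokine and is the neighbour of Pf4, was at 4.04 and 4.73 RPKM in LT-HSCs but at 1.16 and 1.78 RPKM in LT-CML stem cells, where ST-HSCs and ST-CML stem cells had 2.22 and 1.04 RPKM (log2 fold change 0.50, limma adjusted p = 0.182). Tubb1, the platelet tubulin, did not pass the test either (0.39, limma adjusted p = 0.255). Ppbp, Tubb1 and Thbs1 were picked here after their values were seen. Thbs1, thrombospondin 1, went the other way in 1 library, at 69.5 RPKM in ST-HSCs and 1.68 to 9.83 RPKM in the other 5, and was not called.

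All 14 called platelet genes were lower in both KLS- progenitor libraries, which were not part of the fit, than in every LT library. The 14 were chosen for high values in these same LT libraries, which favours that order. The share of all genes with that order was not computed. Pf4 was at 77.6 RPKM in normal and 44.5 RPKM in CML KLS- cells, above ST cells. The mean log2(RPKM + 1) of the whole list was 3.65 to 3.89 in the 4 LT libraries, 2.56 and 2.64 in the ST libraries and 1.99 to 2.00 in the KLS- libraries.

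**Figure D3:**
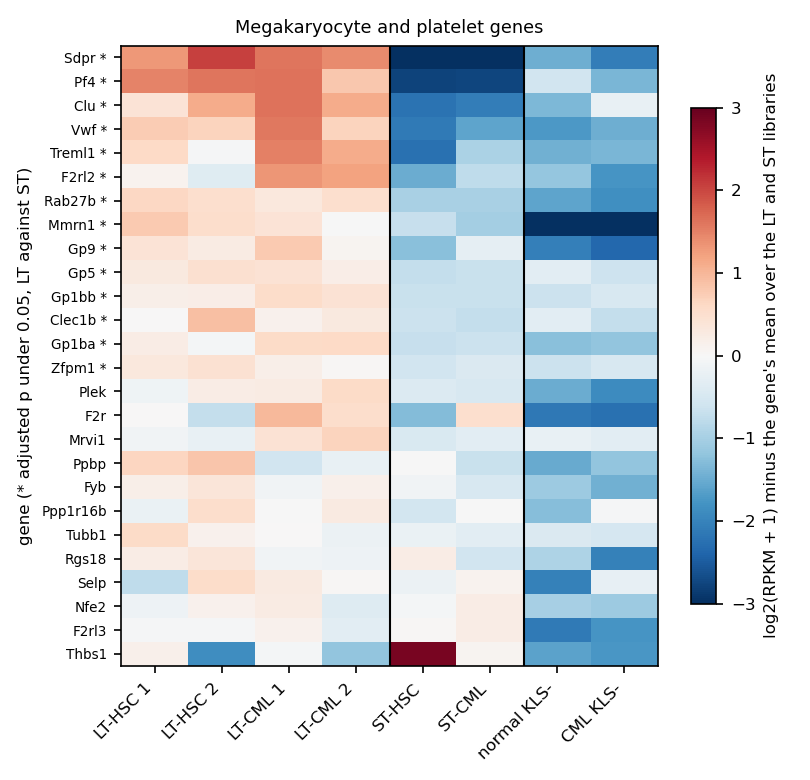
Log2(RPKM + 1) of 26 megakaryocyte and platelet genes in the 8 libraries, each gene centred on its mean over the LT and ST libraries, ordered by the LT minus ST difference, with a star at the 14 called genes. The 4 LT columns are mostly red and the ST and KLS- columns blue for the called genes at the top, whereas Thbs1 at the foot is red only in ST-HSC.

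Gata1, the transcription factor that drives erythroid and megakaryocyte genes, was at 32.8 and 12.9 RPKM in LT-HSCs, 34.9 and 29.6 RPKM in LT-CML stem cells and at 2.53 and 3.35 RPKM in ST cells. Its lowest LT library was still above both ST libraries (log2 fold change 2.77, standard error 0.31, limma adjusted p = 0.00503), and KLS- libraries, at 38.1 and 57.2 RPKM, were higher again. Gata2, its counterpart in stem cells, was at 34.1 to 49.4 RPKM in LT cells and 15.6 and 19.3 RPKM in ST cells (log2 fold change 1.17, limma adjusted p = 0.0120, lost without either ST library). GATA factors bind the core letters GATA, so the promoters of the called platelet genes were searched for GATAA on both strands. A window from RefSeq (GRCm38.p6, from 250 bases before to 50 after the start site) was found for 11 of the 14 genes, and 7 of the 11 windows (63.6%) held the letters, against 25.4% of the 32851 windows of all genes. The windows of Pf4 and F2rl2 are shown. Among called platelet genes with a single window that holds the letters, these 2 had the largest differences. Sdpr, with the largest difference of the list, had a window without the letters. No share was computed for platelet genes that were not called. Each window shown holds the letters once, at position 37 after the start site in Pf4 and at -94 in F2rl2. Pf4 is read from chr5:90772185-90772484 and F2rl2 from chr13:95696670-95696969, both on the plus strand, with GATAA in capitals.
Pf4: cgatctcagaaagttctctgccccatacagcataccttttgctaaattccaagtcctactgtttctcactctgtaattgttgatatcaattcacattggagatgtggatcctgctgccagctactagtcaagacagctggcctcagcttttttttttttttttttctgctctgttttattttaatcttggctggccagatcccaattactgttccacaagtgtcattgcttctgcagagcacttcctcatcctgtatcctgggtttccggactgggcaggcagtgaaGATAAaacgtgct
F2rl2: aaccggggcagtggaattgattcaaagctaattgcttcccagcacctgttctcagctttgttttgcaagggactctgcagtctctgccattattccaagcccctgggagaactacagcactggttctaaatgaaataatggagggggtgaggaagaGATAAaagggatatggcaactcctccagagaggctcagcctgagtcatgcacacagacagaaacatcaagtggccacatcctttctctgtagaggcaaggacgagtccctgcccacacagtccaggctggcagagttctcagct
A match is a description of these letters and not a measured binding site.

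Erythroid genes, Gata1 included, were read as a further list. Of 20 tested, 4 were higher in LT cells (Gata1, Icam4, Epor and Aqp1) and 0 lower, against 2.41% and 1.90% of all genes, with a list median of 0.29 against 0.01 over all genes. The list median was 0.89 in the normal and -0.16 in the CML libraries. Without ST-CML 2 of the 20 were called higher and 0 lower, without ST-HSC 1 was called higher and 3 lower, and a fit of 4 populations called 4 higher and 2 lower. Epor, the erythropoietin receptor, was at 2.52, 2.31, 3.33 and 2.13 RPKM in LT cells and 0.378 and 0.763 RPKM in ST cells (log2 fold change 1.19, limma adjusted p = 0.00903). Icam4, an adhesion molecule of red cells, was at 12 to 21.3 RPKM in LT cells and 5.57 and 5.74 RPKM in ST cells (1.42, limma adjusted p = 0.0137). Neither gene overlapped between LT and ST, and both calls were lost without either ST library. Aqp1, a water channel of red cells, was called at 1.14 (limma adjusted p = 0.0395), a call lost without either LT-HSC library, either LT-CML library or ST-HSC. By limma 0 of 6 markers of maturing erythroblasts were called (1 at an unadjusted p under 0.05). Hbb-b1, a beta globin, was at 56.3 RPKM in the 6-month LT-HSC library, 6.25 RPKM in the other LT-HSC library and at most 3.23 RPKM in the rest.

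Cell cycle genes also differed as a list, and all 49 tested members had a positive log2 difference. Of these, 26 were called higher in LT cells and 0 lower (42 and 0 at an unadjusted p under 0.05 in limma), against 2.41% and 1.90% of all genes. The list's median was 0.90 against 0.01 over all genes, and 38 of the 49 lay above both ST libraries in every LT library, against 13.0% of all genes. The median was 0.79 in the normal and 1.003 in the CML libraries. Calls depended on the ST libraries, with 4 of the 49 called without ST-CML and 10 without ST-HSC, 13 without the second and 16 without the first LT-CML library, and 41 without the 6-month LT-HSC library. That library, which held the most neutrophil transcript, had the lowest mean level of the list among LT libraries. The second LT-CML library came next in neutrophil transcript (1057 RPKM), with a mean level of 4.28. The first LT-CML library had the least of the LT libraries (242 RPKM), with a mean level of 4.15. A link between the levels was not tested.

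Birc5, or survivin, a subunit of the complex that guides chromosome segregation, is encoded on chromosome 11 (plus strand, 117710565 to 117717069, NCBI Build 37). It was at 65.8 and 45.4 RPKM in LT-HSCs, 54.9 and 70.5 RPKM in LT-CML stem cells and at 17.3 and 14.3 RPKM in ST cells, a log2 fold change of 1.82 (standard error 0.20, limma adjusted p = 0.00489). Every LT library held more than 2 times the transcript of either ST library. Mki67, the proliferation antigen Ki-67, was at 28.4, 25.3, 18.7 and 24.6 RPKM in LT cells and 9.20 and 5.04 RPKM in ST cells (1.67, limma adjusted p = 0.00434). Nusap1, a spindle protein, was at 25.9 to 33.9 RPKM in LT cells and 10.3 and 6.33 RPKM in ST cells (1.72, limma adjusted p = 0.00489). Neither gene overlapped between LT and ST. Ccna2, cyclin A2 of S and G2 phase, was at 5.70 to 8.68 RPKM in LT cells and 1.61 and 1.72 RPKM in ST cells (1.62, limma adjusted p = 0.00436, lost without ST-HSC). Aurkb, the kinase partner of survivin, and Prc1, which bundles microtubules at division, differed by 1.58 and 1.57 (limma adjusted p = 0.0147 and 0.00730), and both calls were lost without ST-CML, that of Aurkb also without ST-HSC or the second LT-CML library.

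Mcm2 to Mcm7, the subunits of the replicative helicase and looked at as a group after the values were seen, differed by 0.33 to 0.59, and 0 of the 6 were called in limma (1 at an unadjusted p under 0.05). The called members had differences of 0.82 to 1.82. KLS- libraries exceeded every LT and ST library for 36 of the 49 genes in both disease states. The share of all genes with that order was not computed. The list's mean log2(RPKM + 1) was 4.97 and 5.03 in KLS- cells, 3.92 to 4.44 in LT cells and 3.06 and 3.44 in ST cells. The order of these mean levels was thus ST, LT and KLS-, with no overlap between the 3. Among regulators of entry into the cycle, 1 of 13 CDK inhibitors, D cyclins and partners was called, against 4.31% of all genes. That was Ccnd3, cyclin D3, at 17.2 to 20.7 RPKM in LT cells and 11.0 and 9.65 RPKM in ST cells (log2 fold change 0.76, limma adjusted p = 0.0239), a call that was lost when any library but the 6-month LT-HSC library was left out. Cdk4 overlapped (124.5 to 190.5 against 181.4 and 134.0 RPKM). Cdkn1c, the inhibitor p57, named here after its values were seen, was at 4.04 and 8.99 RPKM in LT-HSCs, 3.86 and 2.08 RPKM in LT-CML stem cells and 1.82 and 3.08 RPKM in ST cells, and did not pass the test (0.63, limma adjusted p = 0.425).

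**Figure D4:**
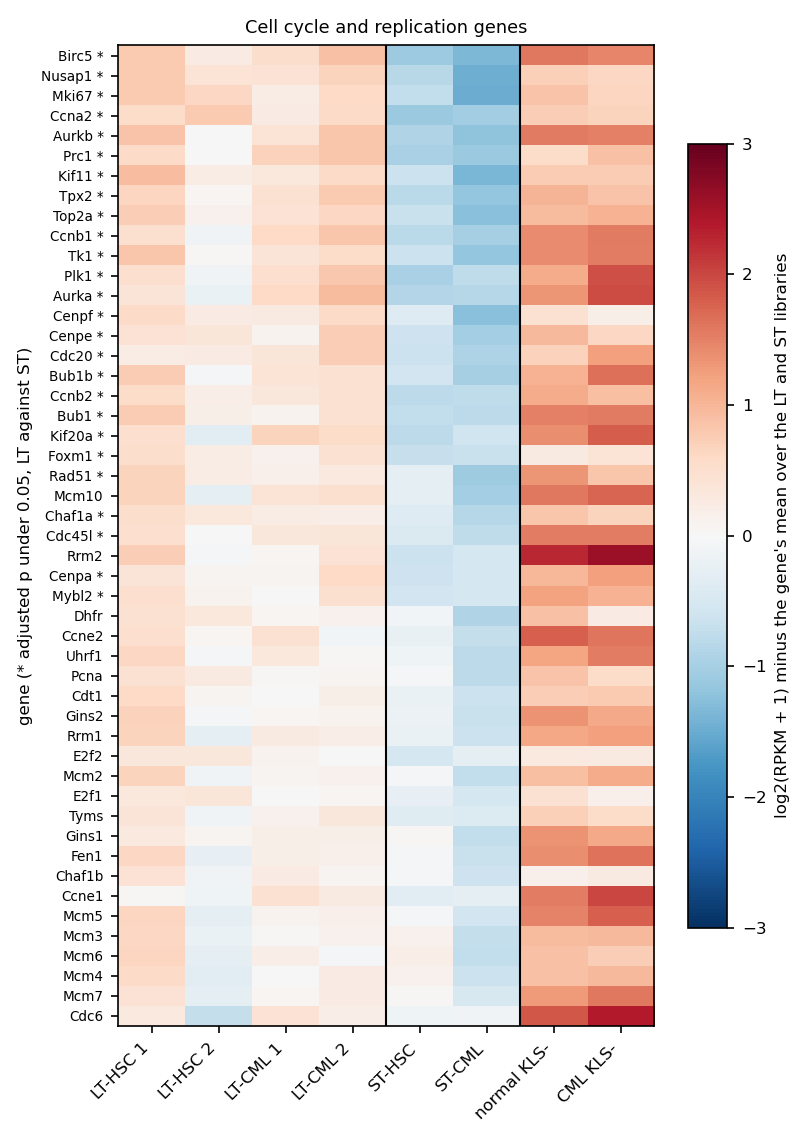
Log2(RPKM + 1) of 49 cell cycle and replication genes in the 8 libraries, each gene centred on its mean over the LT and ST libraries and ordered by the LT minus ST difference, with a star at the 26 called genes. The columns of ST-HSC and ST-CML are blue for the called genes, LT columns are pale to red, and the KLS- columns are the deepest red for most genes.

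Many promoters of genes that peak in G2 and M phase hold the cell cycle homology element, TTTGAA, and CCAAT boxes. TTTGAA on either strand was present in 13 of 21 windows (61.9%) of 20 called cell cycle genes with a RefSeq window, against 17.9% of all windows, and CCAAT in 17 of 21 (81.0%) against 37.4%. Among the 11 windows of the platelet genes the shares were 36.4% for both. No share was computed for cell cycle genes that were not called. The windows of Mki67 (minus strand, chr7:135716330-135716629, GRCm38.p6) and Kif11 (plus strand, chr19:37376132-37376431) are shown. Among called cell cycle genes with a single window that holds TTTGAA, these had the largest differences. The windows differ in the strand of the letters. Kif11, a mitotic kinesin picked after its values were seen, was at 12.2 to 20.5 RPKM in LT cells and 6.25 and 3.37 RPKM in ST cells (log2 fold change 1.52, limma adjusted p = 0.0115). Capitals mark TTTGAA or, in Kif11, its reverse complement.
Mki67: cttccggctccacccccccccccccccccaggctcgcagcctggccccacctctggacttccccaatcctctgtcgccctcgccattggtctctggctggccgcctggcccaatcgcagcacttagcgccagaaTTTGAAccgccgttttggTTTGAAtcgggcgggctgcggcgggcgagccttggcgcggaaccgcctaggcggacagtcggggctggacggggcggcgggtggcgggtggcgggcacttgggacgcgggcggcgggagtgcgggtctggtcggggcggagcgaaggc
Kif11: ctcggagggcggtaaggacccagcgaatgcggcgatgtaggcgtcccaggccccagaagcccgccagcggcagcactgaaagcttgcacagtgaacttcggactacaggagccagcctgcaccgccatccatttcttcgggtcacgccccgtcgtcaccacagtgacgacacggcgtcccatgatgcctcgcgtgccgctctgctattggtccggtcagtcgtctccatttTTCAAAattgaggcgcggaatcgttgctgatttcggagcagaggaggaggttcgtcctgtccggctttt

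Lymphoid genes were read next. Of 20 tested, 9 were lower in LT cells and 0 higher (13 and 1 at an unadjusted p under 0.05 in limma), against 1.90% and 2.41% of all genes, and the list's median was -0.69 against 0.01 over all genes. LT lay below ST in every library for 12 of the 20, against 11.4% of all genes. Without ST-CML 3 of the 20 were called, and 5 without ST-HSC or without either LT-CML library. Dntt, the terminal transferase that adds bases at antigen receptor joints, is encoded on chromosome 19 (plus strand, 41103765 to 41134013, NCBI Build 37). It was at 0.218, 0.465, 0.0933 and 0.504 RPKM in LT cells and at 25.8 and 13.9 RPKM in ST-HSCs and ST-CML stem cells. The log2 fold change was -3.93 (standard error 0.22, limma adjusted p = 0.000262), the most negative of the called genes. KLS- libraries lay between, at 7.25 and 9.82 RPKM.

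Satb1, a chromatin organiser of lymphoid cells, was at 0.523 to 0.842 RPKM in LT cells and 5.18 and 3.05 RPKM in ST cells (log2 fold change -1.61, limma adjusted p = 0.00520). Vpreb1, part of the surrogate light chain of B cell precursors, was at 0.395 to 1.10 RPKM in LT cells and 1.75 and 6.48 RPKM in ST cells (-1.49, limma adjusted p = 0.0450), and its call was lost without the first LT-HSC, either LT-CML or the ST-CML library. Cd27, a costimulatory receptor, was at 54.1 to 63.5 RPKM against 124 and 106 RPKM (-1.01, limma adjusted p = 0.00940). Il2rg, the shared gamma chain of interleukin receptors, was at 61.8 to 68.2 RPKM against 130 and 126 RPKM (-0.97, limma adjusted p = 0.00733). Groups did not overlap for Cd27 or Il2rg, and both calls were lost without either ST library. Markers of mature B, T and NK cells gave 0 calls in limma among 10 tested, with 2 lower at an unadjusted p under 0.05.

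Of 24 myeloid genes tested, 3 were called lower (Hk3, Csf3r and Csf2rb) and 0 higher, against 1.90% and 2.41% of all genes, with a median of -0.39. Without ST-HSC 0 of the 24 were called. At an unadjusted p under 0.05 in the fit of all 6 libraries, 8 were lower and 1 higher. Csf3r, the receptor of granulocyte colony-stimulating factor, was at 14.6, 13.7, 13.3 and 19 RPKM in LT cells and 50.8 and 39.0 RPKM in ST cells (log2 fold change -1.51, limma adjusted p = 0.00633, lost without ST-HSC). Hk3, the hexokinase of myeloid cells, was at 1.08 to 3.90 RPKM in LT cells and 14.5 and 12.01 RPKM in ST cells (-2.06, limma adjusted p = 0.0102, lost without either ST library). Neither overlapped. Mpo, the granule peroxidase of myeloid progenitors, named after its values were seen, spread within LT cells from 5.2 RPKM in the first to 1291 RPKM in the second LT-CML library and was not called.

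The receptors of cytokines and growth factors as a list followed the same side, with 10 of 35 lower and 1 higher (Epor), against 1.90% and 2.41% of all genes, and a median of -0.39. The list is not a separate set. Of its called genes, Flt3 is a sorting marker, Csf3r and Csf2rb are also in the myeloid list and Epor is also in the erythroid list. Without ST-HSC the 11 calls became 2, without ST-CML 5, and without the first LT-HSC or the second LT-CML library 7. Il10ra and Il1r1, receptors for interleukin 10 and interleukin 1, were among them. Il1r1 was at 1.001 to 2.27 RPKM in LT cells and 5.32 and 4.71 RPKM in ST cells (log2 fold change -1.20, limma adjusted p = 0.0122, lost without ST-HSC), with no overlap. Il10ra was at 0.244 and 0.539 RPKM in LT-HSCs against 2.06 RPKM in ST-HSCs, and at 1.77 and 2.12 RPKM in LT-CML stem cells against 8.80 RPKM in ST-CML stem cells (-1.44, limma adjusted p = 0.00622, lost without ST-CML). Its LT-CML values overlapped the ST-HSC value, so the difference appears within each disease state only.

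Genes outside the lists were also among the most negative differences. Ccl3, macrophage inflammatory protein 1 alpha, was at 10.2 and 26.5 RPKM in LT-HSCs, 18.9 and 33.4 RPKM in LT-CML stem cells and 220.0 and 190.9 RPKM in ST cells, a 9.24-fold higher mean in ST cells (log2 fold change -3.26, standard error 0.37, limma adjusted p = 0.00517). Ccl9, another chemokine of myeloid cells, was at 1.44 to 5.60 RPKM in LT cells and 15.0 and 19.5 RPKM in ST cells (-2.31, limma adjusted p = 0.00532, lost without ST-HSC). Neither chemokine overlapped between LT and ST. Cd53, a leukocyte tetraspanin, was at 7.10 to 35.7 RPKM in LT cells and 59.5 and 88.3 RPKM in ST cells (-2.22, limma adjusted p = 0.00963, lost without ST-HSC). Niacr1, the niacin receptor, was at 0.872 to 3.85 RPKM in LT cells and 18.3 and 10.2 RPKM in ST cells (-2.25, limma adjusted p = 0.00237). Gm11428 (-3.29), Bpil2 (-2.88), 5830405N20Rik (-2.50), 1700024P16Rik (-2.46) and Expi (-2.31) were also among the 12 genes with the most negative differences. The calls of Bpil2, 5830405N20Rik and 1700024P16Rik were lost without ST-HSC, and those of Bpil2 and 1700024P16Rik also without the second LT-CML library. The most abundant called genes on this side were Arhgdib, Rgs1 and Laptm5, at 394 to 518, 268 to 353 and 189 to 292 RPKM in LT cells and between 369 and 791 RPKM in ST cells, with log2 fold changes of -0.82 to -0.98, and each of these calls was lost without ST-HSC, without the first LT-HSC library and without at least 1 other library.

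The higher edge outside the platelet list also held named genes. Tuba8, an alpha tubulin, was at 28.2, 20.4, 31.1 and 35.8 RPKM in LT cells and 2.27 and 1.46 RPKM in ST cells (log2 fold change 3.37, standard error 0.23, limma adjusted p = 0.000821). Nupr1, a stress-induced nuclear protein, was at 23.5 and 52.4 RPKM in LT-HSCs, 78.9 and 85.4 RPKM in LT-CML stem cells and 3.4 and 10.7 RPKM in ST cells (2.93, limma adjusted p = 0.00237). Aldh1a1, a retinaldehyde dehydrogenase, ran from 13.6 to 52.4 RPKM in LT cells and stood at 3.61 and 2.77 RPKM in ST cells (2.50, limma adjusted p = 0.0108, lost without either ST library). All 3 were separated between LT and ST in every library. Gstm2, a glutathione transferase (2.67, lost without ST-HSC), Clca1 (2.66, lost without ST-CML) and Gm1964 (3.15) completed the 12 largest. Among the most abundant called genes were H2afz, the histone variant H2A.Z, at 952 to 1159 RPKM in LT and 655 and 706 RPKM in ST cells (0.69, limma adjusted p = 0.0290), and Ldha, lactate dehydrogenase A, at 428 to 561 RPKM in LT and 323.7 and 317.6 RPKM in ST cells (0.62, limma adjusted p = 0.0450). Both differences were small against those above and lost the call without the first LT-HSC library, without the first LT-CML library and without either ST library, and Ldha also without the second LT-CML library.

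Genes used to recognise stem cells did not move as a block. Of 25 tested surface and adhesion genes, 5 were higher and 2 lower, against 2.41% and 1.90% of all genes, so 28% of the list was called against 4.31%. The list's median was 0.13 against 0.01 over all genes. The 7 calls became 3 without ST-HSC and 4 without ST-CML. Ctnnal1, alpha-catulin, a marker of HSCs, was at 10.54, 8.498, 9.84 and 10.03 RPKM in LT cells and 1.85 and 2.07 RPKM in ST cells (log2 fold change 1.86, standard error 0.15, limma adjusted p = 0.00179). Art4, a mono-ADP-ribosyltransferase of the cell surface, was at 23.1 to 33.3 RPKM in LT cells and 12.4 and 12.8 RPKM in ST cells (1.01, limma adjusted p = 0.0177, lost without either ST library). Cd34, the sialomucin that LT cells of adult mice largely lack at the surface, was at 62.4, 37.5, 70.1 and 68.5 RPKM in LT cells and 261 and 155 RPKM in ST cells (-1.78, limma adjusted p = 0.0150, lost without ST-HSC). Cd82, a tetraspanin, was at 9.62 to 20.5 RPKM against 25.2 and 51.0 RPKM (-1.21, limma adjusted p = 0.0455, lost without either ST library, the first LT-HSC or either LT-CML library). None of these 4 genes overlapped. Procr, the endothelial protein C receptor EPCR, named after its values were seen, overlapped, at 16.9 to 33.8 RPKM in LT cells and 27.4 and 53.4 RPKM in ST cells.

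Of 27 stem cell transcription factors tested, 2 were higher and 1 was lower, against 2.41% and 1.90% of all genes, and the median was 0.08. The 3 calls became 1 without either ST library and 5 without the 6-month LT-HSC library. Gata2, given above, was among the higher genes. Ikzf2, or Helios, was at 5.97 to 7.91 RPKM in LT cells and 12.8 and 12.01 RPKM in ST cells (log2 fold change -0.76, limma adjusted p = 0.0353), a call that was lost when any library but the 6-month LT-HSC library was left out. Meis1, Mecom and Hlf, factors known for stem cell maintenance and named after their values were seen, were not called. Meis1 was at 104.5 to 165.6 RPKM in LT cells and 151.6 and 121.2 RPKM in ST cells, Mecom at 14.9 to 25.5 against 17.3 and 19.5 RPKM, and Hlf at 26.4 to 57.7 against 62.6 and 67.0 RPKM. All 3 were higher in every LT and ST library than in both KLS- libraries.

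Transcripts of the genes that the study set at its centre were nearly level between LT and ST cells. For p38 and Smad3 the study measured phosphorylation of the proteins, which transcript levels do not show. Among CML subsets that included ST-CML stem cells, it reported Smad3-Ser208 phosphorylation only in LT-CML stem cells. Its text on Slc15a2 set LT-CML stem cells against LT-HSCs and CML KLS- cells, a different contrast from LT against ST. Its quantitative RT-PCR of Slc15a2 also covered ST cells of CML and normal mice, whose values its text does not give. Of 32 tested genes of dipeptide transport, p38 signalling, Smads and FOXO factors, 1 was called, against 4.31% of all genes, and the median was 0.03. At an unadjusted p under 0.05, 2 were higher and 1 lower, and without the 6-month LT-HSC library 2 were called. The called gene was Tgfbr3, betaglycan, an accessory receptor of TGF-beta, at 8.68 and 11.3 RPKM in LT-HSCs against 1.26 RPKM in ST-HSCs and at 25.9 and 26.2 RPKM in LT-CML stem cells against 7.32 RPKM in ST-CML stem cells (log2 fold change 1.99, standard error 0.18, limma adjusted p = 0.00237). All LT libraries were above both ST libraries, and CML libraries above the normal libraries of the same population. Slc15a2, the dipeptide transporter, was at 2.64 and 3.07 RPKM in LT-HSCs and 3.13 RPKM in ST-HSCs, and at 8.75 and 9.94 RPKM in LT-CML and 10.3 RPKM in ST-CML stem cells (-0.12, standard error 0.15, limma adjusted p = 0.735). Mapk14, or p38 alpha, was at 22.2 to 27.4 RPKM in LT cells and 22.3 and 26.0 RPKM in ST cells (0.00, standard error 0.15, limma adjusted p = 0.997).

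Other lists gave few calls. Interferon response genes had 2 of 34 lower (Rtp4 and Ifi27l2a) and 0 higher, against 1.90% and 2.41% of all genes, and a median of -0.48, and 32 of the 34 had a negative difference. At an unadjusted p under 0.05, 16 were lower and 0 higher, and leaving out 1 library gave 0 to 6 calls, the most without the first LT-HSC library. Rtp4 was at 25.9 and 16.6 RPKM in LT-HSCs against 68.3 RPKM in ST-HSCs and at 13.4 and 6.76 RPKM in LT-CML against 23.8 RPKM in ST-CML stem cells (log2 fold change -1.45, limma adjusted p = 0.0259), lost without either ST library or the second LT-CML library. The call of Ifi27l2a (-1.17, limma adjusted p = 0.0294) was lost without either ST or either LT-CML library. Immediate early genes, which respond within minutes to stimulation and to cell handling, had 2 of 26 higher and 2 lower. That is 15.4% of the list against 4.31% of all genes. Egr2 was at 1.40 to 3.74 RPKM in LT cells and 1.13 and 0.434 RPKM in ST cells (0.99, limma adjusted p = 0.0160), and Egr3 differed by 0.88 (limma adjusted p = 0.0246). Zfp36, which destabilises messenger RNAs, was at 175 to 248 RPKM in LT cells and 347.5 and 347.7 RPKM in ST cells (-0.73, limma adjusted p = 0.0382), and Ier3 differed by -0.88 (limma adjusted p = 0.0380). All 4 of these calls were lost without either ST library.

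Glycolysis enzymes had 1 of 22 higher (Ldha) and 0 lower, against 2.41% and 1.90% of all genes. Imprinted genes and Hox genes had 0 of 16 and 0 of 12 called in limma, against 4.31% of all genes (2 and 3 at an unadjusted p under 0.05). Aldoa, aldolase A, was at 240 to 287 RPKM in LT cells and 362 and 399 RPKM in ST cells without passing the test (log2 fold change -0.52, limma adjusted p = 0.0652). Gnas overlapped at 52.7 to 93.2 RPKM in LT cells and 54.7 and 43.4 RPKM in ST cells. Among markers of other cells, 1 of 8 for monocytes and macrophages was lower (Cd68) and 1 of 4 for marrow stroma (Pdgfrb), against 1.90% of all genes. In limma 0 of 7 for basophils and mast cells, 0 of 3 for endothelium and 0 of 5 sex-linked transcripts were called, against 4.31% of all genes (5, 1 and 0 at an unadjusted p under 0.05). Cd68 was at 5.23 to 6.76 RPKM in LT and 11.4 and 12.7 RPKM in ST cells (-0.96, limma adjusted p = 0.0137), and Pdgfrb overlapped (-0.77, limma adjusted p = 0.0380). Both calls were lost without either ST library, that of Pdgfrb also without the first LT-HSC or either LT-CML library. Hoxa9 was at 4.64 to 5.51 RPKM in LT and 10.3 and 6.14 RPKM in ST cells and was not called (-0.57, limma adjusted p = 0.109).

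The LT and ST populations could be compared separately in normal and in CML mice, each with 2 LT libraries and 1 ST library. The 2 fold changes share no library. Both tests came from the fit of 4 populations to all 6 libraries, however, and share each gene's variance estimate. Calls in normal and in CML mice are therefore not independent. These comparisons were added after the values were seen and rest on 1 ST library each, taken to vary like the LT libraries. In normal mice 47 genes were higher and 70 lower, and in CML mice 62 were higher and 38 lower (limma adjusted p under 0.05). Of these, 38 genes were called in both with the same direction and 1 in both with the opposite direction (2010001M09Rik, 1.62 in normal and -2.34 in CML mice). The 38 included Sdpr, Pf4, Clu, Vwf, Treml1, Rab27b, Itga2b, Itgb3, Gata1, Tgfbr3, Birc5, Mki67, Nusap1, Dntt, Satb1, Flt3 and Ccl3. For Sdpr the log2 fold change was 4.88 in normal and 4.68 in CML mice, for Pf4 4.32 and 3.96, and for Dntt -4.32 and -3.54. The test of the difference between disease states called 7 genes (0.0570% of those tested), none of them among the 38.

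Among genes with a log2 difference of at least 1 in normal mice and no overlap there, the CML libraries were read as a separate set. Of 255 such genes higher in LT-HSCs, 187 (73.3%) were higher in both LT-CML libraries than in ST-CML, against 41.8% of all genes, and 16 were lower in both. Of 201 genes lower in LT-HSCs, 183 (91.0%) were lower in both LT-CML libraries, against 30.0% of all genes, and 3 were higher in both. The median difference shrank from 1.33 to 0.84 on the higher and from -1.33 to -0.86 on the lower side, as can occur for genes chosen by size in the first set. The neutrophil genes were an exception, with a median log2 difference of 4.96 in normal and 0.48 in CML mice.

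**Figure D5:**
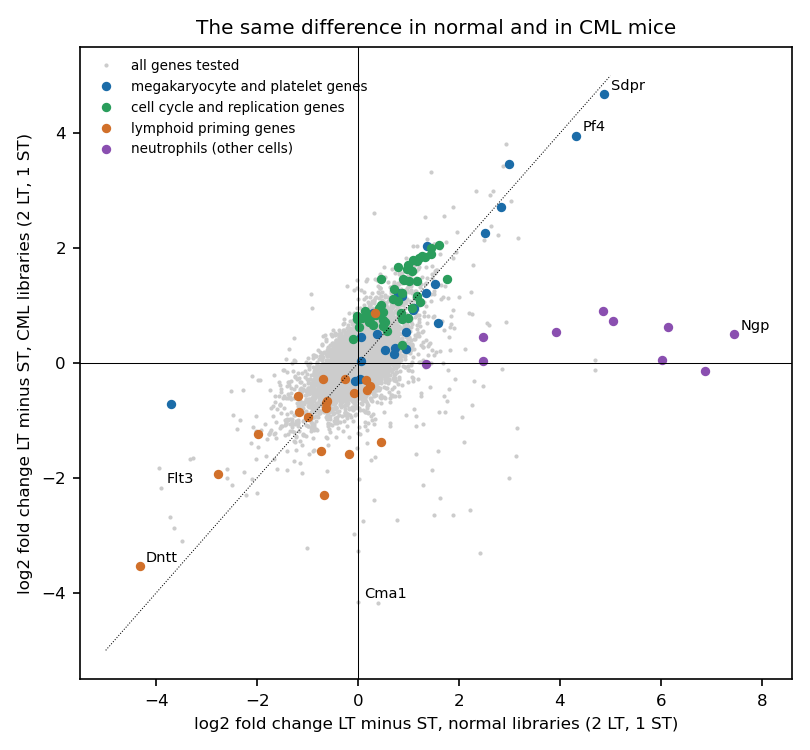
Log2 fold change of LT minus ST in CML libraries (vertical axis) against that in normal libraries (horizontal axis) for 12286 genes in grey, with platelet genes in blue, cell cycle genes in green, lymphoid genes in orange and neutrophil genes in purple, and a dotted line of equality. Sdpr, Pf4 and Dntt lie near the line, the cell cycle genes lie mostly at positive values on both axes, the neutrophil genes spread along the horizontal axis, and Cma1 lies at the foot near 0 on the horizontal axis.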

How the data were processed

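RNA of sorted mouse marrow cells was made into libraries by the authors with an ultra-low-input, oligo-dT-primed kit, sequenced as paired ends and mapped to mm9 (NCBI Build 37) by a commercial service. The deposited values are RPKM per gene. The annotation, counting rule, use of strand and treatment of reads with several matches are not given in the sources used here, so genes with close copies or overlapping neighbours are uncertain. No count test was used. Depth was estimated from the steps of low RPKM (whole multiples within 5% for 2604 of 4160 low genes) and exon lengths of GENCODE M1, where 93.2% of gene names matched 1 locus, and covers counting error only. Of 20207 gene names, 30 had been turned from dates into bare numbers, 2 of them called.

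The 6 libraries were fitted by the lmFit and eBayes functions of limma 3.58.1 (R 4.3.3), with population and disease as terms and 3 residual degrees of freedom. The response was log2(RPKM + 1), the prior variance followed mean intensity, and p-values were adjusted by Benjamini-Hochberg across 12286 genes whose RPKM summed to more than 1. A gene was called at an adjusted p under 0.05, and 2279 genes had an unadjusted p under 0.05. The difference between disease groups came from a fit of 4 populations. The fits were tested on simulated data. Named genes were the sorting markers, the 12 largest calls without overlap on each side, up to 6 called members (or the 2 of highest mean) of each of 16 lists and 10 lists of other cells, 5 genes for the difference between disease groups and the 3 most abundant calls on each side. Other genes are named as picked later or only to complete a list. The comparison, lists and named genes were chosen with earlier results of these data known, and the motifs after the values were seen. Alternatives covered the pseudocount, minimum, scaling, covariate and libraries fitted. Promoter windows were matched by symbol. Some genes that meet the rule are not reported here.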

Additional observations from a re-analysis of the deposited data

Results flagged for a closer look

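The LT-ST difference was tested for a change between CML and normal mice, and 7 of 12286 genes (0.0570%) passed (limma, Benjamini-Hochberg adjusted p under 0.05; 270 at an unadjusted p under 0.05). All 7 had a more negative LT-ST difference in CML, and in each the ST-CML library, which has no replicate, was above both LT-CML libraries. Cma1, a mast cell chymase, was listed at 0 in every LT library and in ST-HSC and was at 16.9 RPKM in ST-CML (difference of log2 differences -4.16). Tpsb2, a mast cell tryptase, was at 9.12 RPKM in ST-CML and at most 0.101 RPKM in the other 5 libraries (-3.27), and its neighbour Tpsab1 was at 3.33 RPKM in ST-CML (-2.05). Gzmb, granzyme B, was at 7.84 RPKM in ST-CML and 0.0682 to 0.496 RPKM in the other 5 (-2.88). Car1, a carbonic anhydrase of red cells, was at 91.7 RPKM in ST-CML, 2.71 and 6.11 RPKM in LT-CML and 21.6 to 30.6 RPKM in the 3 normal libraries (-4.57). Cd79a, a subunit of the B cell receptor, was at 6.43 RPKM in ST-CML and 0.0728 to 3.34 RPKM in the others (-4.14), and 2010001M09Rik was at 5.37 RPKM in ST-CML and 0 to 2.56 RPKM in the others (-3.97). Of the whole basophil and mast cell list, the summed RPKM was 52.7 in ST-CML, 15.2 in ST-HSC and 5.67 to 16.8 in the LT libraries. Cma1 is a member of this list and holds 16.9 RPKM of the ST-CML sum, so the sum is not separate from the calls above. A sum without the called genes was not computed. The part of such cells in these differences was not tested. With 1 ST-CML library, the library and the disease state cannot be told apart. Without either LT-CML library 0 genes passed, without the 6-month LT-HSC library 1, and without the first LT-HSC library 17.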

How the results depend on the processing

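The 72 named and called genes kept their direction under each alternative that could be run, and 20 kept the call under all 17. In total 530 genes were called, which became 102 with no minimum on RPKM, 219 with no covariate and 1334 with the first replicate of each LT population only, and 117 in normal and 100 in CML libraries alone. Leaving out 1 library gave 103 to 768 genes, 28 to 109 calls in the lists (85 in all) and 31 to 70 of the named calls. With no minimum, no covariate and the first replicates, the lists had 28, 42 and 158 calls. The named genes kept 29 and 40 calls with no minimum and no covariate. For lymphoid genes (9 calls) these counts were 5 and 4, and 3 to 10 without 1 library. For platelet genes (14) no covariate gave 8, and leaving out a library 6 to 13. For cell cycle genes (26) the counts were 5, 16 and 47 (first replicates), and 4 to 41 without 1 library. The 7 genes that differed between disease groups became 0 with a pseudocount of 0.1 and with no minimum, 3 with quantile normalization, 2 with upper-quartile scaling, 3 without the trend and 0 to 17 without 1 library. The LT-ST difference of 2010001M09Rik, not called, turned to 1.63 without ST-CML and was -2.34 without ST-HSC. The other scalings, pseudocounts and fits gave 493 to 615 calls. The cause of these changes was not tested, beyond the fewer libraries in some. No paired analysis was possible because each ST population has 1 library and shares fewer than 2 replicate numbers with LT. On a transcript of 1 kb, values under about 0.165 RPKM rest on 3 reads or fewer.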
